A study of Mus musculus with 64 samples.

Results

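Cell cycle and DNA replication genes were described in the hippocampus and liver of mice given corticosterone (CORT), both wildtype (WT) animals and a model of Angelman syndrome (AS). The set comprised 41 genes, taken by symbol from the 55414 genes of the acute count table and the 55573 genes of the continuous count table, and all 41 were found in both. They fell into 4 roles: 4 genes of G1 cyclins and E2F (Ccnd1, Ccne1, Ccne2 and E2f1), 10 genes of DNA replication and nucleotide supply (Mcm2 to Mcm7, Pcna, Rrm1, Rrm2 and Tyms), 12 regulators of S phase, G2 and mitosis (such as Cdk1, Ccna2, Plk1 and Aurkb) and 15 genes of chromosome structure, the spindle and cytokinesis (such as Mki67, Top2a, Cenpf and Prc1).

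A cell that enters division raises the D and E cyclins first, which release the E2F factors from the retinoblastoma proteins. E2F then switches on the MCM helicase, the sliding clamp PCNA and the enzymes that make deoxynucleotides, and later genes of the mitotic spindle, the centromere and cytokinesis follow. In the adult hippocampus the dividing cells are mainly precursors in the dentate gyrus and some glia, immune and vessel cells, whereas most adult hepatocytes are quiescent and the liver also holds dividing non-parenchymal cells.

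The libraries were poly(A) RNA of 64 samples. AS mice were Ube3a m-/p+, with an exon of the maternal ubiquitin ligase gene deleted (Ube3a tm1Alb) and the paternal copy intact. WT and AS mice alike were F1 hybrids of C57BL/6J and 129sv parents, and all were adult males aged 10 to 18 weeks. In the acute cohort, WT and AS mice were injected subcutaneously with vehicle or with CORT at 3 mg/kg, and the hippocampus was taken 3 h later from 6 mice in each of the 4 groups. In the continuous cohort, a pellet of cholesterol alone (vehicle) or with 20 mg CORT was carried for 5 days, and hippocampus and liver came from the same 20 mice, 5 in each of the 4 groups. The paternal allele is silent in neurons but active in liver, so AS mice lack UBE3A in neurons and not in hepatocytes. The authors report less UBE3A protein in AS than in WT liver. They also state that astrocytes and oligodendrocytes of AS mice keep some UBE3A. The comparison asks how CORT moved these genes in each tissue, and whether it did so to the same extent in AS and WT mice.

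Counts on genes lay between 18612550 and 21783009 per library, and levels are given as CPM, a gene's count scaled to its library's total times a TMM factor for composition. On this scale the 3 counts taken as the detection floor corresponded to 0.142 to 0.160 CPM in the acute hippocampus, 0.133 to 0.159 CPM in the continuous hippocampus and 0.144 to 0.160 CPM in the liver. Fold changes are log2 values from the quasi-likelihood test of edgeR, and p-values were adjusted over all genes tested by the Benjamini-Hochberg method, with a threshold of 0.05. Among the acute libraries, H17 to H24 (2 AS vehicle mice and all 6 AS CORT mice) held more reads of low alignment quality than H1 to H16, at 2640 to 2850 against 1877 to 2237, so that with CORT this difference and genotype cannot be told apart. In the continuous hippocampus, H9 (AS vehicle) and H13 (WT vehicle) stood apart with summed neuronal markers of 4267 to 4338 CPM against 10139 to 12029 CPM in the other libraries, and they were left out of that fit. Hepatocyte markers summed to 87147 to 133604 CPM in the liver libraries. In such bulk tissue, fewer dividing cells and less of a transcript per cell cannot be told apart. Each library of a tissue came from 1 mouse, and library numbers restart in the continuous cohort. Ube3a itself was at 52.4 to 84.6 CPM in WT and 64.04 to 81.9 CPM in AS mice of the acute hippocampus, 73.3 to 98.2 and 69.5 to 97.98 CPM in the continuous hippocampus, and 41.8 to 54.4 and 28.5 to 38.6 CPM in the liver. Genotypes overlapped in the hippocampus, and in the liver every AS mouse lay below every WT mouse. Counts over the whole gene do not single out the deleted exon, so the hippocampal values do not check the genotype labels.

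In vehicle mice Pcna and Ccnd1 were the most abundant members. Per kb of exon in vehicle mice, Pcna was the highest member in each tissue, at 8.65 ± 0.856 CPM per kb (mean ± SD, n = 12) in the acute hippocampus, 13.97 ± 0.976 (n = 8) in the continuous hippocampus and 8.24 ± 1.10 (n = 10) in the liver. Ccnd1, the cyclin D1 gene, came next in each, at 7.78 ± 1.12, 8.28 ± 1.21 and 3.72 ± 1.57 CPM per kb. In the hippocampus Ccne1 was the third, followed by E2f1 and Mcm4 in the acute cohort (4.51 ± 0.385, 2.53 ± 0.481 and 2.43 ± 0.207) and by Mcm4 and Mcm6 in the continuous cohort (5.36 ± 0.397, 3.11 ± 0.355 and 3.02 ± 0.610). In the liver, Mcm7, Rrm2 and Hmgb2 followed at 2.80 ± 0.448, 1.61 ± 0.582 and 1.28 ± 0.288 CPM per kb. The ranges of Pcna and Ccnd1 overlapped in the acute hippocampus and in the liver, and those of Ccnd1 and Ccne1 in the continuous hippocampus. Ccne1 lay wholly above the next member in both hippocampal sets, and all other neighbours among the 5 highest overlapped, except Pcna above Ccnd1 in the continuous and Ccnd1 above Ccne1 in the acute hippocampus.

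The 5 lowest members of each set were genes of mitosis. They were Cenpf, Kif23, Ccnb1, Cdk1 and Bub1 in both hippocampal sets, at 0.0392 to 0.0719 CPM per kb in the acute and 0.0428 to 0.0932 in the continuous cohort, and Ccnb1, Fam83d, Cenpe, Bub1 and Cenpf in the liver, at 0.0124 to 0.0256. These 5 overlapped each other in every set. Among vehicle mice of the continuous cohort, 18 of the 41 members had CPM ranges in the hippocampus wholly above those in the liver, 2 (Rrm2 and Tyms, both of deoxynucleotide supply) lay wholly above in the liver, and 21 overlapped. Between hippocampus and liver libraries of the same number, 8 pairs of the same genotype and treatment, 26 members were higher in the hippocampus in every pair, Rrm2 and Tyms were higher in the liver in every pair, and 13 were mixed. The labels do not state that a shared number is the same mouse. This is a description across separately normalised tissues and was not tested. Because of low counts, 12 members were tested in no comparison with the filter on low counts (Aurkb, Birc5, Bub1, Ccnb1, Ccnb2, Cdc20, Cdk1, Kif20a, Kif23, Nusap1, Pbk and Ube2c), and Ect2 was tested only in the liver. This filter left 28 members in the acute hippocampus, 27 in the continuous hippocampus and 14 in the liver.

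**Figure D1:**
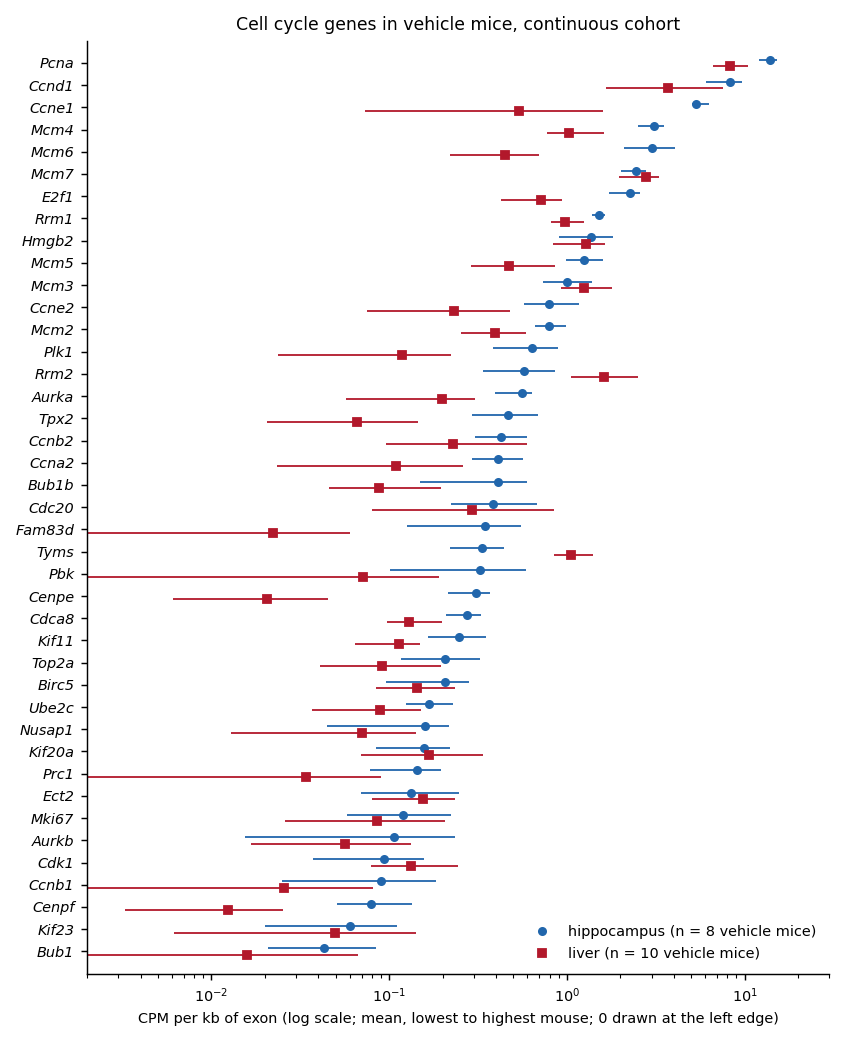
Mean CPM per kb of exon (log axis) of each of the 41 genes in vehicle mice of the continuous cohort, hippocampus (blue circles, n = 8) and liver (red squares, n = 10), with lines from the lowest to the highest mouse. Pcna and Ccnd1 lead in both tissues, 18 genes lie wholly higher in the hippocampus by CPM, and Rrm2 and Tyms lie wholly higher in the liver.

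Promoter windows of RefSeq (GRCm38.p6, 250 bases before to 50 after the start) matched 33 of the 41 genes. No window was matched for Mcm4, Tpx2, Ccnd1, Ccne2, Pbk, Ccna2, Kif20a and Aurkb. The windows were searched on both strands for E2F-like letters (TTTCCCGC, TTTGGCGC, TTTGCCGC or TTTCGCGC), for letters like the cell cycle homology region of mitotic promoters (CHR-like, TTTGAA or TTTAAA), for CCAAT, and for a GRE-like arrangement of the glucocorticoid response element (GNACA and TGTNC with 3 bases between them). E2F-like letters stood in 5 of 33 members (Cdk1, Mcm3, Mcm5, Mcm6 and Mcm7) and in 2.26% of all 32851 windows. CHR-like letters stood in 24 of 33 members against 27.6% of all windows, among them 8 of 9 S, G2 and M regulators and 12 of 13 chromosome and spindle genes. CCAAT stood in 28 of 33 members against 37.4% of all windows, and the GRE-like arrangement in 0 of 33 members against 0.475%. A match describes letters only and is not a bound site.

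The 250 bases before the start are shown for 6 genes described in the results below, 5′ to 3′ on the gene's own strand, with the matches in capitals (E2F-like, CHR-like and CCAAT, read on either strand). In Mcm5 and Mcm6, subunits of the replicative helicase, a pair of E2F-like matches on opposite strands overlap in 1 run of capitals. Cenpf (a centromere protein), Top2a (the topoisomerase that untangles sister chromatids) and Fam83d (a spindle protein) share CHR-like and CCAAT letters, and Rrm2 (the regulated subunit of ribonucleotide reductase) shows CCAAT alone in this stretch. They lie at chr8:75109259-75109508 (plus strand), chr1:128359706-128359955 (minus strand), chr1:189688087-189688336 (minus strand), chr11:99024190-99024439 (minus strand), chr2:158767849-158768098 (plus strand) and chr12:24708004-24708253 (plus strand).
Mcm5: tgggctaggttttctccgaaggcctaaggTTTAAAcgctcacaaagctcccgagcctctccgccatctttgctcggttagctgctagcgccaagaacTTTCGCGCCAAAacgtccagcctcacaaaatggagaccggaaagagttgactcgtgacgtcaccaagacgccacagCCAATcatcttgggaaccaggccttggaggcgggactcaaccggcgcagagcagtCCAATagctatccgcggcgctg
Mcm6: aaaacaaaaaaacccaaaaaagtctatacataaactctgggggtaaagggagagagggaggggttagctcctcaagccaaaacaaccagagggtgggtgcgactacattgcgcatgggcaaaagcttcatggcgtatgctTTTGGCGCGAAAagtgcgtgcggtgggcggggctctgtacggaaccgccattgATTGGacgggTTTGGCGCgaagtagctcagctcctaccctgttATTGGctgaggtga
Cenpf: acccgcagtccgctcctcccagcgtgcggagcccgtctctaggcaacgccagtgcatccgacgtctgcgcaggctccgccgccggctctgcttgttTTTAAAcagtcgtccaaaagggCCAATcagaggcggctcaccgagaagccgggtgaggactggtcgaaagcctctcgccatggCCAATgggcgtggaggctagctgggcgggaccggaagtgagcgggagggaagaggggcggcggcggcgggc
Top2a: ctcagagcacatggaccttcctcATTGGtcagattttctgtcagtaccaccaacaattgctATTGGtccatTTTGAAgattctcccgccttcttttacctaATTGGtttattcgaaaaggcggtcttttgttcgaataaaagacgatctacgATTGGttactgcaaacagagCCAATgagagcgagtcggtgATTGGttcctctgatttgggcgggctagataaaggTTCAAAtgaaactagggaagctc
Fam83d: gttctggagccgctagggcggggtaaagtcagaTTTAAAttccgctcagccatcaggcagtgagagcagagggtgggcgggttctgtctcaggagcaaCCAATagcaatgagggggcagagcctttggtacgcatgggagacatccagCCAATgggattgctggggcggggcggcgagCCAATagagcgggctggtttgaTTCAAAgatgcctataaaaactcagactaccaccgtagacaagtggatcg
Rrm2: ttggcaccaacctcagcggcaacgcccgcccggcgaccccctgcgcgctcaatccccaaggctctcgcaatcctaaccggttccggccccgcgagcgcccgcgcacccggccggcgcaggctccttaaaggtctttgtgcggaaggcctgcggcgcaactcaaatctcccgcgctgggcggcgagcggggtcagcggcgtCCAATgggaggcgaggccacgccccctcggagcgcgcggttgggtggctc

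At 3 h after the injection, Ccnd1 was lower and Fam83d higher in the hippocampus of CORT mice, and no other member passed when both genotypes were averaged. Averaged over WT and AS mice, 2 of 28 tested members passed the threshold, where 7.02% of all 14611 genes tested did. The median log2 fold change of the 28 members was -0.02, beside 0.00030 over all genes, with 12 members above 0 and 16 below.

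Ccnd1, whose product pairs with CDK4 and CDK6 in G1 and which is also expressed in cells that do not divide, had a lowest, median and highest level of 33.3, 36.2 and 52.8 CPM in WT vehicle mice and 24.03, 29.8 and 30.2 CPM in WT CORT mice. In AS mice these were 33.3, 35.4 and 36.9 CPM with vehicle and 19.2, 23.9 and 29.6 CPM with CORT. All 12 CORT mice lay below all 12 vehicle mice, and the highest vehicle value came from 1 WT mouse, H4. The log2 fold change averaged over genotypes was -0.48 ± 0.07 (SE), adjusted p = 2.82e-05 (edgeR's quasi-likelihood test), a 1.39-fold fall. Within WT mice it was -0.42 ± 0.10 (SE), adjusted p = 0.0202, and within AS mice -0.54 ± 0.10 (SE), adjusted p = 6.72e-04. In WT mice Ccnd1 was the 1 of 28 members that passed, beside 1.48% of all genes, and its call there was lost when H4 (-0.31), H8 (-0.37) or H12 (-0.41) was left out. Reads of Ccnd1 share exon bases with a gene on the opposite strand.

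Fam83d, whose protein brings casein kinase 1 to the mitotic spindle, ran from 2.08, 2.64 and 3.21 CPM (lowest, median and highest) in WT vehicle to 2.20, 3.57 and 5.98 CPM in WT CORT mice. In AS mice it ran from 1.06, 1.25 and 2.67 CPM with vehicle to 2.30, 2.83 and 3.81 CPM with CORT. CORT and vehicle mice overlapped in both genotypes, in AS mice through the 1 vehicle mouse H13. The averaged log2 fold change was 0.81 ± 0.16 (SE), adjusted p = 0.00132, and it was 1.04 ± 0.24 (SE), adjusted p = 0.00426 in AS mice and 0.58 ± 0.21 (SE), adjusted p = 0.279 in WT mice.

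Within AS mice, 3 of 28 members passed the threshold (Ccnd1, Fam83d and Pcna), beside 17.9% of all genes. Pcna, the clamp that holds DNA polymerase on its template, had a lowest, median and highest level of 18.6, 19.5 and 24.3 CPM with vehicle and 23.1, 25.9 and 26.6 CPM with CORT (log2 fold change 0.27 ± 0.08 (SE), adjusted p = 0.0185). The 2 AS vehicle mice on the H17 to H24 side, at 23.6 and 24.3 CPM, lay within the range of the AS CORT mice. With a covariate marking H17 to H24, or AS vehicle mice restricted to H17 and H18, 0 of 28 members passed in AS mice. Of all genes, 1.03% and 0.892% passed in these fits. The log2 fold changes were -0.51 and -0.52 for Ccnd1, 1.33 and 1.32 for Fam83d, and 0.069 and 0.065 for Pcna. Within AS mice both alternatives compare the CORT mice with H17 and H18 alone. They are therefore not separate checks, and both rest on these 2 vehicle mice. The averaged calls of Ccnd1 and Fam83d passed with the covariate, at -0.46 and 0.95.

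Mki67, Top2a and Mcm2 did not pass, nor did Pcna when genotypes were averaged. Mki67, the proliferation antigen present in all active phases of the cycle, had lowest, median and highest levels of 1.35, 2.08 and 2.73 CPM in WT vehicle and 0.915, 1.46 and 3.27 CPM in WT CORT mice, and of 1.01, 2.40 and 2.92 and 1.37, 1.75 and 2.14 CPM in AS mice, with overlap in both genotypes (averaged log2 fold change -0.33 ± 0.18 (SE), adjusted p = 0.286). For Top2a the averaged value was -0.36 ± 0.21 (SE), adjusted p = 0.344, for Mcm2 -0.11 ± 0.07 (SE), adjusted p = 0.379 and for Pcna 0.13 ± 0.06 (SE), adjusted p = 0.164. Cdk1, the kinase that starts mitosis, was below the filter, at 0.0477 to 0.586 CPM in vehicle mice and 0.0979 to 0.385 CPM in CORT mice. Microglial markers were lower with CORT for 3 of 6 tested genes and endothelial markers for 2 of 6, beside 3.5% of all genes. The summed microglial levels were 183 to 239 CPM with vehicle against 162 to 204 CPM with CORT. The endothelial levels were 98.5 to 160 against 102 to 151 CPM. The part of these cells in the Ccnd1 result was not tested.

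After 5 days of CORT, Fam83d was higher in the hippocampus of every CORT mouse than in any vehicle mouse, and Top2a was lower, a call near the threshold. Averaged over WT and AS mice, 4 of 27 tested members passed the threshold, beside 9.67% of all 14949 genes tested. Of them 3 were lower, where 5.48% of all genes were, and 1 was higher, where 4.19% were. The median log2 fold change of the members was -0.06, beside 0.00088 over all genes, and 20 of 27 members lay below 0. Cenpf and Prc1 passed the filter on low counts through vehicle groups alone, which made a lower level with CORT more likely among members tested, so their calls are not counted as support for a direction. Leaving out both, 2 of 25 members passed, 1 lower (Top2a) and 1 higher (Fam83d), with a median of -0.06 and 18 below 0.

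Fam83d was at 1.06, 1.81, 2.19 and 2.22 CPM in the 4 WT vehicle mice of the fit and at 3.51, 4.59, 5.26, 6.33 and 9.67 CPM in the 5 WT CORT mice. In AS mice it was at 0.506, 0.913, 0.967 and 1.40 CPM with vehicle and 5.56, 5.94, 6.25, 9.51 and 10.5 CPM with CORT. The ranges did not overlap in either genotype, and H9 (1.59 CPM) and H13 (1.85 CPM), left out of the fit, lay within the range of the 8 vehicle mice of the fit. The averaged log2 fold change was 2.33 ± 0.23 (SE), adjusted p = 1.54e-06, a 5.04-fold rise, with 1.68 ± 0.31 (SE) in WT mice and 2.99 ± 0.33 (SE) in AS mice (adjusted p = 0.00384 and 1.88e-05). The difference between genotypes, 1.31 ± 0.46 (SE), had an unadjusted p of 0.0102 and an adjusted p of 1 in edgeR's test of the interaction. It was the 1 of 27 members that passed within AS mice, beside 3.77% of all genes.

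Cenpf, a kinetochore protein that accumulates in G2, was at 1.20, 1.23, 1.27 and 1.32 CPM in WT vehicle and 0.328, 0.510, 0.512, 0.604 and 0.652 CPM in WT CORT mice. In AS mice it was at 0.782, 0.884, 1.05 and 2.07 CPM with vehicle and 0.522, 0.560, 0.795, 0.803 and 0.928 CPM with CORT. The WT groups did not overlap and the AS groups did. The log2 fold change was -0.99 ± 0.19 (SE), adjusted p = 0.00233 over both genotypes and -1.26 ± 0.28 (SE), adjusted p = 0.0176 in WT mice, where Cenpf and Fam83d were the 2 of 27 members that passed, beside 2.92% of all genes. Leaving out Cenpf and Prc1, this was 1 of 25. In AS mice it was -0.73 ± 0.27 (SE), adjusted p = 0.168. Without H6, H16 and H17, the libraries of the fit with the most choroid plexus RNA (506 to 2897 CPM), 0 members passed in WT mice, beside 1.16% of all genes in that fit, at -1.21 for Cenpf and 1.42 for Fam83d.

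Top2a was at 1.32, 1.43, 1.77 and 2.36 CPM in WT vehicle and 0.140, 0.373, 0.603, 0.743 and 0.978 CPM in WT CORT mice. In AS mice it was at 1.06, 1.26, 2.85 and 2.92 CPM with vehicle and 0.374, 0.522, 1.17, 1.23 and 2.78 CPM with CORT. The WT groups did not overlap, and in AS mice the CORT mice H7, H16 and H18 lay within the range of the vehicle mice. The averaged log2 fold change was -1.16 ± 0.35 (SE), adjusted p = 0.0391. Prc1, which bundles the microtubules of the central spindle, was at 0.911, 1.09, 1.20 and 1.32 CPM in WT vehicle and 0.326, 0.515, 0.556, 0.604 and 0.791 CPM in WT CORT mice, and at 0.644, 1.16, 1.51 and 1.61 and 0.655, 0.665, 0.897, 0.980 and 1.44 CPM in AS mice. Again the WT groups did not overlap and the AS groups did, and the averaged log2 fold change was -0.71 ± 0.20 (SE), adjusted p = 0.0323. Its exons overlap those of a gene on the other strand. Both calls were near the threshold: with 1 mouse left out in turn, the adjusted p reached 0.0897 for Top2a, called in 7 of 18 such fits, and 0.0775 for Prc1, called in 9 of 18. Without H6, H16 and H17, Prc1 lost its call (-0.76, adjusted p = 0.0606), and Top2a was at -1.49, adjusted p = 0.0194.

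Mki67 did not pass the filter in this tissue. It was at 0.581, 0.820, 0.924 and 1.99 CPM in WT vehicle and 0.232, 0.326, 0.328, 0.929 and 1.07 CPM in WT CORT mice, and at 0.690, 0.744, 1.70 and 2.24 CPM in AS vehicle and 0.421, 0.513, 0.617, 0.944 and 1.48 CPM in AS CORT mice. The groups overlapped in both genotypes, and with no filter on low counts the averaged log2 fold change was -0.82 ± 0.31 (SE), adjusted p = 0.175. Without the filter 3 of 41 members passed (Fam83d higher, where 1.83% of 31882 genes were, and Top2a and Cenpf lower, where 2.32% were). Cdk1 (-1.02 ± 0.39 (SE), adjusted p = 0.170 without the filter), Mcm2 (-0.20 ± 0.08 (SE), adjusted p = 0.136), Ccnd1 (0.09 ± 0.08 (SE), adjusted p = 0.581) and Pcna (0.00 ± 0.05 (SE), adjusted p = 0.975) did not pass. All 10 replication genes were tested and none passed in edgeR's test. Their averaged log2 fold changes ran from -0.39 (Rrm2) to 0.17 (Tyms), with an unadjusted p below 0.05 for Mcm2, Mcm3 and Mcm6.

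Markers of other cells moved with these changes, to be read beside the 5.48% of all genes that were lower. Neural precursor markers were lower with CORT for 3 of 5 tested genes (Nes, Hopx and Hes5), with summed levels of 56.7 to 78.3 CPM against 90.6 to 105 CPM with vehicle, and the groups did not overlap. Microglial markers were lower for 6 of 6 genes tested (169 to 196 against 194 to 239 CPM), endothelial markers for 4 of 6 (107 to 138 against 127 to 160 CPM), markers of oligodendrocyte precursors for 2 of 6 (130 to 177 against 163 to 197 CPM) and neuroblast markers for 1 of 6. The part of these cells in the lower Cenpf, Top2a and Prc1 levels was not tested.

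**Figure D2:**
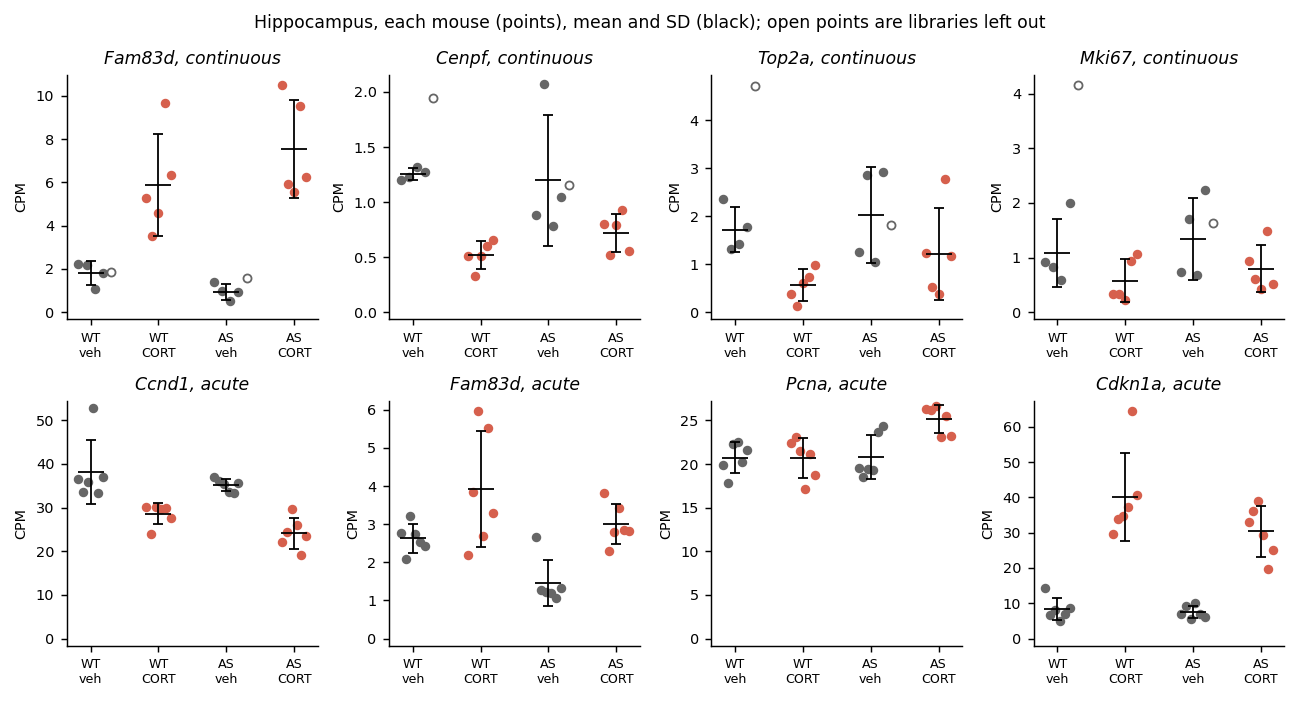
CPM of each mouse in the hippocampus by genotype and treatment (grey vehicle, red CORT, black mean and SD), for the continuous cohort (top) and the acute cohort (bottom), with open points for H9 and H13, which were left out of the fit. All CORT mice lie above all vehicle mice for Fam83d in the continuous cohort and below them for Ccnd1 in the acute cohort.

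In the liver more of the tested members passed. After 5 days of CORT, Ccnd1 was 4.85-fold lower, Rrm2 4.63-fold higher, and Mcm2, Mcm3, Mcm4 and Mcm6, of the MCM helicase, were lower. Averaged over WT and AS mice, 9 of 14 tested members passed the threshold, beside 37.1% of all 12273 genes tested. Of them 8 were lower, where 19.6% of all genes were, and 1 was higher, where 17.5% were. The median log2 fold change of the 14 members was -0.31, beside -0.00348 over all genes. Mcm5 and Ect2 (which did not pass) met the filter through vehicle groups alone, which made a lower level with CORT more likely, so the call of Mcm5 is not counted as support for a direction. Leaving out both, 8 of 12 members passed, 7 lower and 1 higher.

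Ccnd1 was at 7.87, 12.1, 17.4, 18.05 and 22.3 CPM in WT vehicle and 2.42, 3.21, 3.85, 3.99 and 4.96 CPM in WT CORT mice. In AS mice it was at 14.03, 14.3, 16.7, 16.9 and 35.5 CPM with vehicle and 2.56, 3.16, 3.56, 3.84 and 4.36 CPM with CORT. Every CORT mouse lay below every vehicle mouse, and the AS vehicle mouse L11 lay far above the rest. The log2 fold change was -2.08 ± 0.29 (SE), adjusted p = 4.20e-05 in WT and -2.48 ± 0.29 (SE), adjusted p = 3.38e-06 in AS mice, and -2.28 ± 0.21 (SE), adjusted p = 4.61e-08 over both. The other G1 members were E2f1, tested and at 0.20 ± 0.15 (SE), adjusted p = 0.318, and Ccne1 and Ccne2, below the filter.

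Rrm2 moved the other way. It was at 2.94, 2.99, 4.47, 6.88 and 6.97 CPM in WT vehicle and 15.9, 17.5, 19.1, 19.3 and 26.3 CPM in WT CORT mice, and at 2.996, 3.24, 3.41, 4.89 and 5.81 CPM in AS vehicle and 16.1, 19.4, 19.4, 23.8 and 29.4 CPM in AS CORT mice. The lowest CORT mouse was above the highest vehicle mouse. The log2 fold change was 2.01 ± 0.25 (SE), adjusted p = 8.18e-06 in WT and 2.41 ± 0.25 (SE), adjusted p = 6.86e-07 in AS mice. Its partner Rrm1, the large subunit of the same enzyme, was lower, at -0.27 ± 0.08 (SE), adjusted p = 0.0129, and Tyms, which makes thymidylate, was at -0.18 ± 0.09 (SE), adjusted p = 0.101.

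The MCM2 to MCM7 proteins form the ring that unwinds DNA. Mcm5 was at 1.15, 1.23, 1.39, 1.40 and 1.76 CPM in WT vehicle and 0.359, 0.510, 0.879, 0.940 and 1.18 CPM in WT CORT mice, and at 1.73, 1.91, 2.16, 2.76 and 3.44 CPM in AS vehicle and 0.389, 0.641, 0.680, 0.735 and 0.934 CPM in AS CORT mice. In WT mice 1 CORT mouse (1.18 CPM) was above 1 vehicle mouse, and in AS mice the groups did not overlap. The averaged log2 fold change was -1.33 ± 0.20 (SE), adjusted p = 2.06e-05. Mcm3 was at 3.46, 3.72, 4.46, 4.57 and 4.71 CPM in WT vehicle and 2.41, 2.50, 2.60, 2.77 and 3.15 CPM in WT CORT mice, and at 3.94, 4.66, 4.81, 5.61 and 6.72 CPM in AS vehicle and 2.38, 2.83, 3.01, 3.13 and 3.77 CPM in AS CORT mice, without overlap in either genotype, and its averaged value was -0.70 ± 0.11 (SE), adjusted p = 2.73e-05.

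Mcm6, Mcm2 and Mcm4 were lower too. Their averaged log2 fold changes were -0.82 ± 0.18 (SE), adjusted p = 9.90e-04, -0.59 ± 0.16 (SE), adjusted p = 0.00646 and -0.56 ± 0.13 (SE), adjusted p = 0.00201. Mcm2 was at 2.45 ± 0.320 (SD, n = 5) against 2.06 ± 0.556 (SD, n = 5) CPM in WT mice and 3.07 ± 1.02 (SD, n = 5) against 1.61 ± 0.308 (SD, n = 5) CPM in AS mice, vehicle against CORT. Mcm7, which shares exon bases with 2 genes on the other strand, was at 0.17 ± 0.09 (SE), adjusted p = 0.122, and Pcna at 0.05 ± 0.08 (SE), adjusted p = 0.617, so that neither passed. Hmgb2, a chromatin protein abundant in cycling cells, was lower at -0.34 ± 0.13 (SE), adjusted p = 0.0433, a call kept in 7 of 20 fits that each left out 1 mouse. In the promoter windows, Mcm3, Mcm5, Mcm6 and Mcm7 held E2F-like letters and Mcm2 did not.

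Within WT mice 4 of 14 members passed (Ccnd1, Rrm2, Mcm3 and Mcm5), beside 18.6% of all genes, and within AS mice 8 of 14 (Ccnd1, Rrm2, Mcm2 to Mcm6 and Rrm1), beside 27.5%. Leaving out Mcm5 and Ect2, these were 3 of 12 and 7 of 12. In WT mice Mcm5 was at -0.84 ± 0.28 (SE), adjusted p = 0.0415 and called in 14 of 20 fits with 1 mouse left out, a call lost without the filter (adjusted p = 0.0747), and in AS mice at -1.82 ± 0.27 (SE), adjusted p = 4.98e-05. Rrm1 in AS mice was likewise called in 14 of 20, and its call there was lost without the filter (-0.32, adjusted p = 0.0771). The test of the difference between genotypes gave -0.98 ± 0.39 (SE) for Mcm5, with an unadjusted p of 0.0216 and an adjusted p of 0.545 from edgeR.

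The 27 members below the filter in the liver include nearly all mitotic genes, and were examined by their counts. Mki67 had 5, 8, 12, 14 and 23 counts in the WT vehicle mice and 0, 3, 4, 5 and 8 in the WT CORT mice, and 6, 12, 17, 35 and 43 in the AS vehicle and 0, 1, 2, 2 and 4 in the AS CORT mice. Top2a had 7, 11, 12, 16 and 19 and 0, 1, 2, 4 and 10 counts in WT and 11, 12, 13, 31 and 36 and 0, 0, 2, 2 and 2 in AS mice, in the same order. For both, counts of vehicle and CORT mice overlapped in WT mice, and in AS mice they did not. The AS vehicle mice L11 and L19 had the highest counts of both genes.

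With no filter other than 1 count in some library, 23 of 41 members passed in the averaged comparison, 22 lower and 1 higher, beside 9.44% of 26482 genes lower and 8.01% higher. Of the 23, 15 had not been tested with the filter, and all 15 were lower: 7 of the 12 S, G2 and M regulators and 8 of the 15 chromosome and spindle genes. Mki67 was at -2.51 ± 0.44 (SE), adjusted p = 1.27e-04, and Top2a at -2.87 ± 0.44 (SE), adjusted p = 2.13e-05. Summed over the 10 vehicle and the 10 CORT mice, counts fell from 175 to 29 for Mki67, from 168 to 23 for Top2a, from 111 to 27 for Cdc20 (the activator of the anaphase-promoting complex) and from 91 to 35 for Ccna2 (cyclin A).

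The rarest of them had few counts even with vehicle. Aurkb, a kinase of the chromosomal passenger complex, had 34 counts in all with vehicle and 2 with CORT, Tpx2 (a spindle assembly factor) 63 and 8, Kif23 (a motor of cytokinesis) 80 and 12, Nusap1 (which binds spindle microtubules) 59 and 14, and Prc1 57 and 8. Cenpf had 39 and 5, Cenpe (a kinetochore motor) 36 and 4, Bub1b (of the spindle checkpoint) 76 and 31, Pbk (a mitotic kinase) 26 and 4, Ccnb1 (cyclin B) 22 and 2, and Bub1 (a checkpoint kinase) 14 and 0. Adjusted p without the filter was between 0.000333 (Aurkb) and 0.0368 (Ccnb1) for these 11 genes. Ccnb1 also has a processed pseudogene in the annotation, as do the members Ccnb2, Tyms and Pcna.

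Other mitotic genes gave no call. Cdk1 had 133 counts in all with vehicle and 110 with CORT (-0.19 ± 0.24 (SE), adjusted p = 0.742 without the filter), Birc5 (survivin) 99 and 121, Cdca8 (borealin) 137 and 132, Kif11 (a motor that separates the spindle poles) 172 and 155, Kif20a (a motor of cytokinesis) 148 and 132, and Aurka (a kinase of the centrosome) 102 and 101. None of these 6 passed. Plk1, Ccnb2, Ube2c and Ect2 did not pass either, nor did Ccne1, Ccne2, E2f1, Mcm7, Pcna and Tyms, and Hmgb2 lost its call without the filter (adjusted p = 0.0849). Fam83d, which rose in the hippocampus, had 18 counts with vehicle and 14 with CORT in the liver (-0.26 ± 0.69 (SE), adjusted p = 0.997). Among the 11 members that share exon bases with genes on the other strand are Ccna2, Cdc20, Nusap1 and Prc1, given above as lower, and Kif20a, Cdca8, Plk1 and Ube2c.

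Without the filter, 4 members passed within WT mice (Ccnd1, Mcm3 and Top2a lower, Rrm2 higher), beside 4.11% of genes lower and 3.42% higher. Within AS mice 20 passed, 19 lower and 1 higher, beside 6.45% lower and 5.51% higher. Top2a was at -1.85 ± 0.58 (SE), adjusted p = 0.0475 in WT and -3.88 ± 0.66 (SE), adjusted p = 1.35e-04 in AS mice, and Mki67 at -1.56 ± 0.60 (SE), adjusted p = 0.130 in WT and -3.47 ± 0.64 (SE), adjusted p = 4.02e-04 in AS mice. No member passed in the test of the difference between genotypes without the filter either.

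Markers of non-parenchymal cells moved with these genes, to be read beside the 19.6% of all genes that were lower and the 17.5% that were higher. Macrophage markers were lower with CORT for 6 of 6 genes tested, at summed levels of 47.8 to 71.9 CPM against 85.99 to 163 CPM with vehicle, and the groups did not overlap. Lymphocyte and granulocyte markers were lower for 2 of 2 tested (Ptprc and Cd79a) at 1.43 to 3.67 against 5.09 to 9.82 CPM, endothelial markers for 5 of 6 at 58.8 to 102 against 72.1 to 148 CPM, and red blood cell genes for 5 of 5 at 124 to 327 against 243 to 573 CPM. Of 6 hepatocyte markers, 3 were higher and 1 lower, at 93104 to 133604 against 87147 to 118561 CPM. Ly6g of the granulocyte list had 1 count in all 20 libraries. Cd79a and the macrophage genes P2ry12 and Aif1 met the filter through vehicle groups alone, which made a lower level with CORT more likely. Their calls, included in the counts above, are not counted as support for a direction. The summed levels do not depend on this filter. The part of these cells in the lower mitotic counts was not tested.

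**Figure D3:**
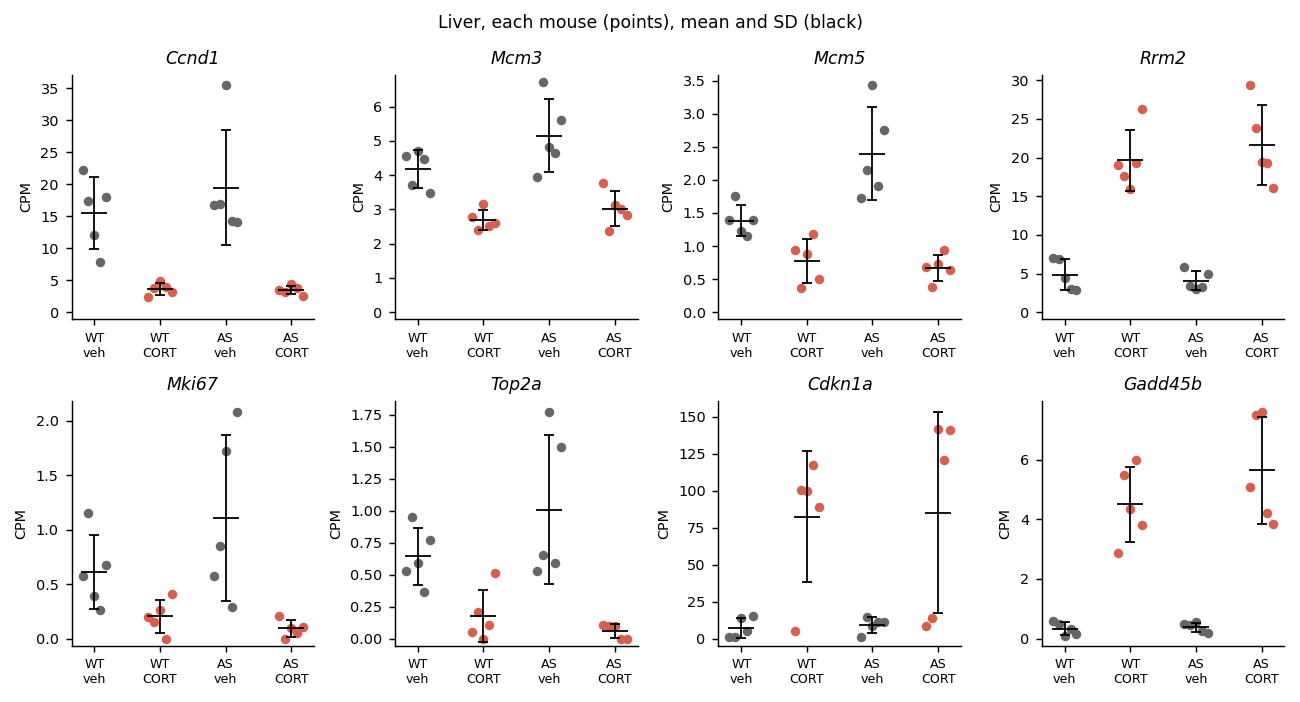
CPM of each mouse in the liver by genotype and treatment (grey vehicle, red CORT, black mean and SD) for 6 members and for the inhibitor genes Cdkn1a and Gadd45b. Ccnd1 of all 10 CORT mice lies below, and Rrm2 above, all 10 vehicle mice, and Cdkn1a of 3 CORT mice lies far below the other 7.

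Cdkn1a, the CDK inhibitor p21 and a brake on G1 cyclin kinases, rose with CORT in every set. In the acute hippocampus its lowest, median and highest levels were 5.06, 7.52 and 14.2 CPM in WT vehicle and 29.8, 35.9 and 64.4 CPM in WT CORT mice, and 5.49, 6.94 and 10.1 and 19.8, 31.2 and 38.9 CPM in AS mice, without overlap (averaged log2 fold change 2.14 ± 0.15 (SE), adjusted p = 9.96e-11). In the continuous hippocampus it was at 4.25, 4.39, 4.74 and 6.53 CPM in WT vehicle and 10.8, 11.9, 11.98, 13.4 and 16.8 CPM in WT CORT mice, and at 3.07, 5.10, 5.48 and 6.77 and 14.2, 14.3, 19.3, 20.2 and 23.5 CPM in AS mice (1.61 ± 0.14 (SE), adjusted p = 5.46e-07). The groups of the fit did not overlap there, and the left-out WT vehicle library H13 was at 13.4 CPM.

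In the liver Cdkn1a was at 0.721, 0.803, 5.14, 14.03 and 15.2 CPM in WT vehicle and 5.34, 88.9, 100, 100 and 117 CPM in WT CORT mice, and at 0.769, 8.65, 10.9, 11.1 and 14.3 CPM in AS vehicle and 8.53, 14.2, 121, 141 and 142 CPM in AS CORT mice. Although the averaged change was large (3.37 ± 0.65 (SE), adjusted p = 3.70e-04), the CORT mice L3, L7 and L8 lay within the range of the vehicle mice, and the vehicle mice L1, L2 and L4 lay below 1 CPM. The checkpoint gene Wee1 had 290 to 566 counts in L1, L2, L3, L4, L7 and L8, mice of both treatments, and 30 to 98 in all other livers. Some members were apart in the same mice. Ccne1, the cyclin E1 gene, had 53 to 85 counts in L1, L2 and L4 against 4 to 15 in the other 7 vehicle mice, and 20 to 34 counts in L3, L7 and L8 against 4 to 17 in the other 7 CORT mice. Among vehicle mice, L1, L2 and L4 lay wholly above the others for 5 members (Ccne1, Ccne2, Pcna, Rrm2 and Tyms) and wholly below for Mcm7 and Hmgb2, with Rrm2 at 5.81 to 6.97 against 2.94 to 4.89 CPM and Pcna at 21.3 to 25.1 against 16.02 to 19.95 CPM. Cenpf counts of 1 to 2 in these mice and 2 to 8 in the others met at 2. Among CORT mice, L3, L7 and L8 lay above for Ccne1 and just below for Mcm4.

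Without these 6 mice, left out after their values were seen, 9 of 13 tested members passed in the averaged comparison, 8 lower (Mcm5 among them), beside 19.8% of all genes, and 1 higher, beside 17.8%, with Ccnd1 at -2.08 (adjusted p = 1.25e-05), Rrm2 at 2.42 (adjusted p = 9.81e-09) and Mcm3 at -0.76 (adjusted p = 1.45e-04). Within WT mice 3 passed, beside 19.5% of all genes, and within AS mice 7, beside 25.8%, where Mcm5 in WT mice (-0.78, adjusted p = 0.123) and Rrm1 in AS mice (-0.31, adjusted p = 0.112) lost their calls in edgeR's test. With no filter as well, 20 of 41 members passed in the averaged comparison, 19 lower, beside 10.5% of all genes, and 1 higher, beside 8.41%, without Rrm1 (adjusted p = 0.0544).

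Gadd45b, a stress gene that slows the cycle, was at 0.0981, 0.144, 0.315, 0.502 and 0.577 CPM in WT vehicle and 2.87, 3.82, 4.34, 5.49 and 5.98 CPM in WT CORT mice, and at 0.194, 0.245, 0.451, 0.480 and 0.540 and 3.85, 4.20, 5.07, 7.49 and 7.59 CPM in AS mice, without overlap (3.81 ± 0.25 (SE), adjusted p = 4.86e-10). Gadd45b met the filter through CORT groups alone, which made a rise more likely among genes tested, so its call is not counted as support for a direction.

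The other genes of the pathway were counted by list in the averaged comparison, to be read beside the 19.6% of all liver genes that were lower and the 17.5% that were higher. In the liver, 6 of 13 DNA synthesis genes were lower and 0 higher, among them the polymerase alpha genes Pola2 (-0.57 ± 0.08 (SE), adjusted p = 1.86e-05) and Pola1 (-0.61 ± 0.11 (SE), adjusted p = 1.39e-04) and the clamp loader gene Rfc3 (-0.53 ± 0.09 (SE), adjusted p = 8.26e-05). Of 7 other cyclin and CDK genes 4 were lower, led by Ccnd2 (-0.90 ± 0.11 (SE), adjusted p = 2.75e-06) and Cdk2 (-0.28 ± 0.05 (SE), adjusted p = 4.89e-04), and of 12 genes for origin licensing 2 were lower (Cdt1 and Mcm10). Of 12 tested Rb, E2F and Myb factors 3 were higher and 2 lower. Among the higher, E2f7, a repressor of E2F targets (1.93 ± 0.40 (SE), adjusted p = 6.85e-04), met the filter through CORT groups alone and is not counted as support. Of 5 further mitosis genes 1, Cenpa, was lower (-1.07 ± 0.14 (SE), adjusted p = 3.73e-06). Of 5 tested CDK inhibitors 2 were higher (Cdkn1a and Cdkn1c, the latter at 0.75 ± 0.19 (SE), adjusted p = 0.00374), and of 10 checkpoint and growth arrest genes 1 was higher (Gadd45b, through the filter as described) and 2 lower.

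In the hippocampus the lists are to be read beside 7.02% of all genes called in either direction in the acute and 9.67% in the continuous cohort. In the acute cohort 1 of 5 CDK inhibitors (Cdkn1a) was higher. Of 11 checkpoint genes Cdc25b was lower (-0.31 ± 0.07 (SE), adjusted p = 0.00727) and Wee1 higher (0.20 ± 0.05 (SE), adjusted p = 0.0113), of 9 mitosis genes Espl1 was lower (-0.63 ± 0.16 (SE), adjusted p = 0.0139) and Cenpa higher (0.47 ± 0.14 (SE), adjusted p = 0.0338), and of 10 Rb and E2F genes Rb1 was lower (-0.16 ± 0.05 (SE), adjusted p = 0.0444). In the continuous cohort Cdkn1a was higher, of 11 Rb and E2F genes Rbl1 was lower (-0.58 ± 0.14 (SE), adjusted p = 0.00878), and of 10 mitosis genes Anln, also a myelin gene in brain, was higher (0.74 ± 0.23 (SE), adjusted p = 0.0457). In edgeR's averaged test, 0 of 12 DNA synthesis genes, 0 of 13 and 14 genes of origin licensing and 0 of 7 other cyclin and CDK genes passed in the acute and the continuous cohort.

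**Figure D4:**
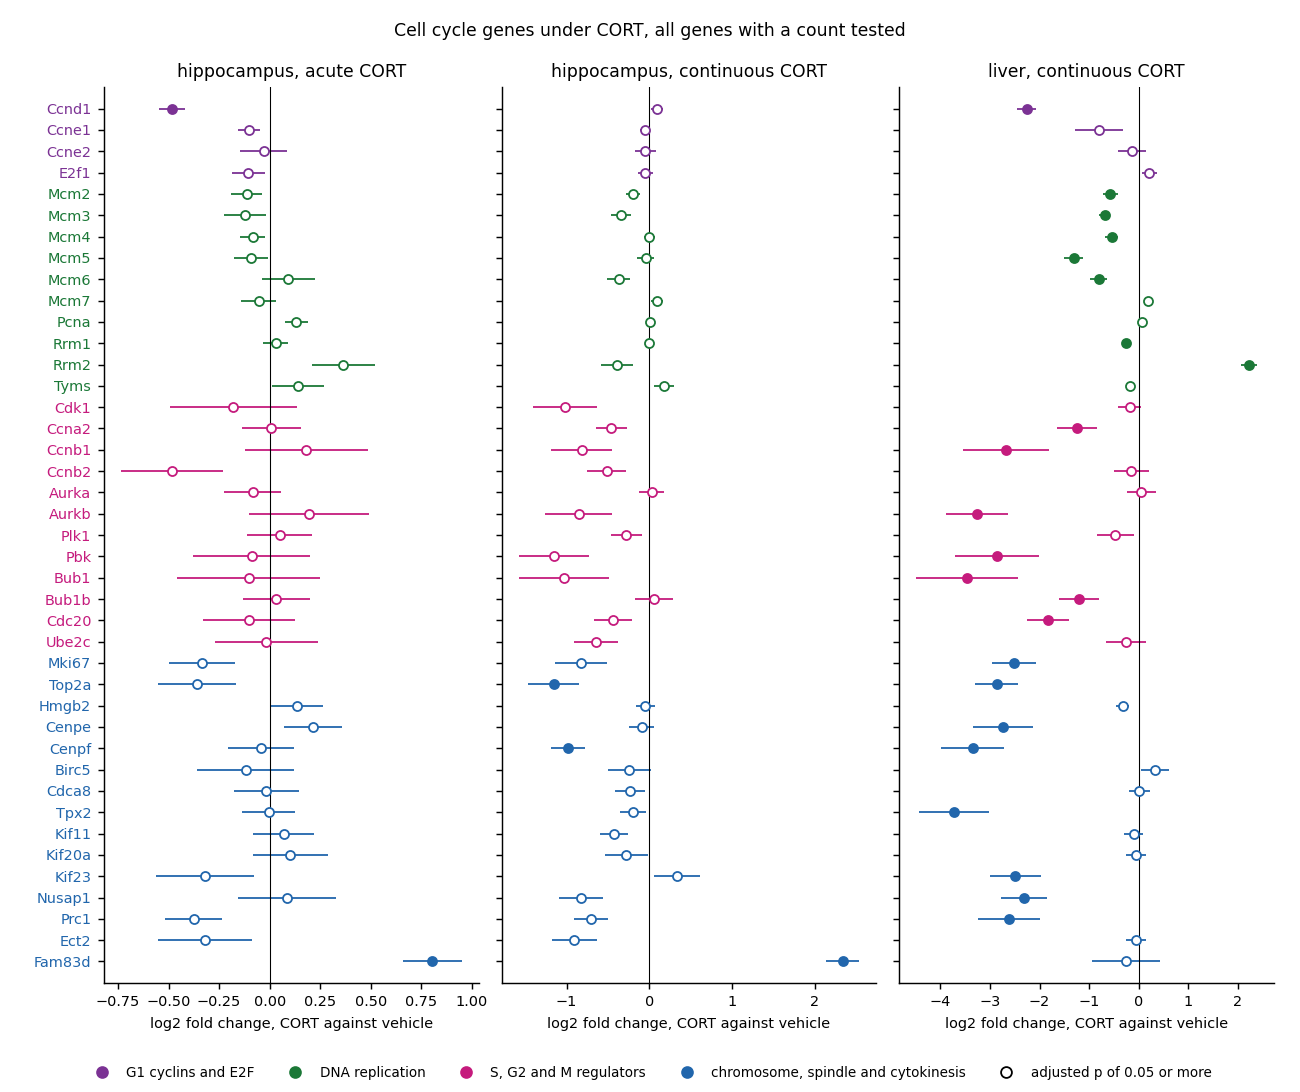
log2 fold change of the 41 genes for CORT against vehicle, averaged over WT and AS mice, with SE, from fits with no filter on low counts. The horizontal scale differs between panels, and filled points have an adjusted p under 0.05. In the liver 22 filled points lie below 0 and 1, Rrm2, above, whereas the hippocampus has 2 filled points in the acute and 3 in the continuous cohort.

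AS and WT mice with vehicle gave no call in any member. In the acute hippocampus 0 of 28 members passed, beside 0.157% of all genes, with 4 at an unadjusted p below 0.05 in edgeR's test, led by Fam83d (-0.85 ± 0.24 (SE), adjusted p = 0.157) and Ccne2 (0.54 ± 0.17 (SE), adjusted p = 0.229). In the continuous hippocampus 0 of 27 passed, beside 0.0134%, with 4 at an unadjusted p below 0.05. In the liver 0 of 14 passed, beside 0.0163%, with 2 at an unadjusted p below 0.05 (Mcm5 at 0.79 ± 0.25 (SE), adjusted p = 0.271, and Mcm4). DESeq2's Wald test called 0 members in each as well.

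Among CORT mice of the acute cohort, 3 of 28 members were higher in AS mice, where 11.7% of all genes were. None was lower, where 13.2% of all genes were, and 24.9% of all genes passed in either direction. Ccne2, a cyclin E gene that acts at the entry into S phase, had lowest, median and highest levels of 1.25, 2.28 and 2.84 CPM in WT and 3.57, 3.78 and 4.44 CPM in AS mice (0.79 ± 0.17 (SE), adjusted p = 0.002), without overlap. With vehicle it was at 1.74, 2.42 and 3.61 CPM in WT and 2.45, 3.75 and 4.68 CPM in AS mice, with overlap. Pcna was at 0.28 ± 0.08 (SE), adjusted p = 0.0109 and Rrm1 at 0.25 ± 0.09 (SE), adjusted p = 0.0317. The Rrm1 call was lost without the filter (adjusted p = 0.0632) and kept in 17 of 24 fits with 1 mouse left out, where those of Ccne2 and Pcna were kept in 24 of 24. All 6 AS CORT libraries are on the H17 to H24 side. With the covariate marking this side, 0 members passed in edgeR's test, beside 0% of all 14611 genes. The values were 0.89 for Ccne2, 0.14 for Rrm1 and -0.036 for Pcna. The size of this covariate is estimated from the AS vehicle mice alone, the only group with libraries on both sides. Ccne2 shares exon bases with the gene Ints8 on the opposite strand.

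Among CORT mice of the continuous cohort, 0 of 27 members passed in the hippocampus, beside 0.0401% of all genes, with 6 at an unadjusted p below 0.05, and 0 of 14 in the liver, beside 0.277%, with 1 (E2f1 at -0.55 ± 0.21 (SE), adjusted p = 0.441). Ccne2 was at 0.60 ± 0.17 (SE), adjusted p = 0.265 in the continuous hippocampus with CORT and at 0.46 ± 0.18 (SE), adjusted p = 0.575 with vehicle. The response to CORT itself was compared between genotypes by the interaction. It was called for 0 of 28 members in the acute hippocampus, beside 4.49% of all genes, for 0 of 27 in the continuous hippocampus and for 0 of 14 in the liver, beside 0% of all genes in both. At an unadjusted p below 0.05 there were 5, 2 and 2 members, and DESeq2 called 0 in each.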

How the data were processed

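RNA-seq was measured in 24 acute hippocampal and 20 hippocampal and 20 liver samples of the continuous cohort. The authors aligned paired reads to mm10 with STAR and counted them per gene with HTSeq-count within BioWDL, and deposited raw counts. The mRNA libraries were stranded. The annotation release and the strand option used in counting are not given in the sources used here. Symbols came from the GENCODE M21 annotation. Rows that name no gene (11.74 to 23.29% of reads) stayed out. In edgeR 4.0.16 (R 4.3.3), genes with over 20 median-of-ratios normalised counts in 3 or more replicates of a group were kept, scaled by TMM and fitted with 1 coefficient per group, separately for each tissue and cohort, by the quasi-likelihood test, with 6 contrasts. Groups came from the labels. The members and lists were chosen with earlier results of these data known. Named were members past the threshold, 6 fixed members (Mki67, Top2a, Cdk1, Ccnd1, Mcm2 and Pcna), the 5 highest and 5 lowest by level, untested members, and up to 10 pathway genes a contrast by adjusted p. Others named in the liver were chosen after their values were seen. Alternatives were DESeq2 1.42.0, its size factors, no filter, all 20 mice, the covariate, each mouse left out and, added after seeing the data, groups of 3 hippocampal and 6 liver libraries left out. No pair of libraries of a group agreed within counting noise (chi-square per gene of at least 4.47). In the acute WT CORT group, H8 gave 27.8 to 40.4 with the other mice, where pairs among those gave 6.10 to 20.1. The authors link most of the second principal component to H8 and kept it, as was done here. The code was tested on simulated data. Each library's depth sets a floor of 3 counts, which covers counting error only.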

Additional observations from a re-analysis of the deposited data

Results flagged for a closer look

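In 8 of 124 groups of 4 to 6 mice examined (named member, tissue and group), 1 mouse lay far from the others by Dixon's ratio of its gap to the range, where chance gives about 1 in 20. In the acute hippocampus these were Ccnd1 in the WT vehicle mouse H4 (52.8 CPM against 33.3 to 37.04 CPM in the others), Mki67 in the WT CORT mouse H9 (3.27 CPM against 0.915 to 1.64 CPM), Fam83d in the AS vehicle mouse H13 (2.67 CPM against 1.06 to 1.32 CPM) and Cdk1 in the AS CORT mouse H22 (0.333 CPM against 0.196 to 0.241 CPM, or 7 counts against 4 to 5). In the liver they were Ccnd1 in the AS vehicle mouse L11 (35.5 CPM against 14.03 to 16.9 CPM), Cdk1 in the AS vehicle mouse L19 (0.629 CPM against 0.480 to 0.501 CPM, or 13 counts against 10 in each of the others), Mcm2 in the AS CORT mouse L18 (1.07 CPM against 1.71 to 1.80 CPM) and Mcm6 in the WT vehicle mouse L13 (1.68 CPM against 2.11 to 2.26 CPM). Both gaps of Cdk1 are of 2 to 3 counts. Without the acute mouse H9 of the WT CORT group, the averaged log2 fold change of Mki67 in the acute hippocampus was -0.50 and passed the threshold, with an adjusted p of 0.0449 from edgeR. Without H13 of the AS vehicle group, Fam83d passed between AS and WT vehicle mice, at -1.11 with an adjusted p of 0.0480.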

How the results depend on the processing

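The filter on low counts changed most. Without it 20 members in place of 8 passed within AS mice and 23 in place of 9 in the averaged comparison in the liver, as more members were tested, and with L1, L2, L3, L4, L7 and L8 also left out, an alternative chosen after seeing the data, 19 and 20 passed. In the acute hippocampus, 0 members passed within AS mice with a covariate marking H17 to H24. With AS vehicle mice restricted to H17 and H18, which makes the same comparison, 0 passed as well. Between AS and WT CORT mice 0 passed with the covariate, where Pcna turned to -0.0361. In the continuous hippocampus 0 members passed within WT mice without H6, H16 and H17, an alternative chosen after seeing the data, and the averaged Pcna value, near 0, turned to -0.0352 with all 20 mice, -0.0218 with all 20 and no filter, -0.0222 without those 3 libraries, and ran from -0.0221 to 0.0255 with each mouse left out. The cause of these changes was not tested.

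With each mouse left out in turn, the members called ranged from 0 to 1 within WT mice, 2 to 3 within AS mice, 2 to 3 averaged, 0 to 1 between vehicle mice, 2 to 4 between CORT mice and 0 to 1 for the interaction in the acute hippocampus. In the continuous hippocampus they ranged from 2 to 3 within WT mice, stayed at 1 within AS mice, and ranged from 2 to 6 averaged. In the liver they ranged from 3 to 5 within WT mice, 7 to 8 within AS mice and 8 to 9 averaged, and the other comparisons of the continuous cohort stayed at 0. The averaged count of 4 in the continuous hippocampus fell to 2 without any 1 of H1, H3, H8, H10, H11, H12, H17 or H19. DESeq2's test and its size factors kept every count of members called within 1.5 times that of edgeR with TMM. No paired analysis was possible because, within a tissue and cohort, the groups compared hold different mice. Depth limits the mitotic genes of the liver most, whose fitted folds rest on the few counts given in the text.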
